A study of Mus musculus with 18 samples.

Results

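The mitochondrially encoded mRNAs were followed in the injured kidneys of *Cxcl12* and *Myc* knockout (KO) mice. The members were the protein-coding genes of the mitochondrial genome (symbols starting with mt-) with at least 1000 reads in every kidney, and 7 of the 13 such genes among the 45706 genes of the count files met this rule. These were *mt-Nd1*, *mt-Nd2*, *mt-Nd4*, *mt-Nd5* and *mt-Nd6*, which encode subunits of respiratory complex I, *mt-Cytb*, which encodes the cytochrome b subunit of complex III, and *mt-Co1*, which encodes the catalytic subunit of complex IV (cytochrome c oxidase). The rule used the level of each gene in every kidney and no difference between genotypes. All 7 passed the filter on low counts in each comparison. The members carried 39361 to 496115 reads per kidney, and the other 6 genes had at most 11, so that no gene lay near the threshold of 1000.

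RNA was sequenced from whole kidneys of 18 male mice labelled C57BL/6 (C57BL/6J for the floxed lines in the study's methods), aged 10 to 12 weeks at injury by the study's methods and removed after bilateral ischemia of 22.5 min and 12 h of reperfusion. There were 5 *Cxcl12* KO and 3 *Cxcl12* control mice, and 5 *Myc* KO and 5 *Myc* control mice. KO mice were F/F for floxed *Cxcl12* or floxed *Myc* and carried both Pax8rtTA and TetOCre, so that doxycycline induced the recombinase in tubule cells. Control mice of each cohort were F/F for the same floxed gene and carried Pax8rtTA without TetOCre. All groups received doxycycline for 14 days, followed by a washout of 1 week, and all were injured, so the data hold no uninjured kidney. The recombination was limited to the tubule while the RNA came from the whole organ, and a lower number of tubule cells and less RNA per tubule cell cannot be told apart.

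The mitochondrial genome is a small circle that is transcribed from both strands into long precursors, which are cut at tRNAs into separate mRNAs, rRNAs and tRNAs. Its mRNAs encode core subunits of complexes I, III, IV and V of oxidative phosphorylation, and all other subunits come from the nucleus. Proximal tubules and thick ascending limbs are among the tissues richest in mitochondria, and ischemia halts their respiration.

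All members lie on chromosome M of GRCm38 (GENCODE vM21), each as a single exon without introns. *mt-Nd1* spans bases 2751 to 3707, *mt-Nd2* 3914 to 4951, *mt-Co1* 5328 to 6872, *mt-Nd4* 10167 to 11544, *mt-Nd5* 11742 to 13565 and *mt-Cytb* 14145 to 15288, all on the plus strand. *mt-Nd6*, from 13552 to 14070, is the only protein-coding gene on the minus strand and overlaps the end of *mt-Nd5* by 14 bases. The reads were counted without regard to strand, so transcripts of *mt-Nd6* and RNA from the opposite strand of the same bases cannot be told apart. The first 30 bases of each transcript in GENCODE vM21 are shown 5' to 3', because the start triplets (in capitals) differ among the members.

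mt-Nd1: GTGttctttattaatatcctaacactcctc
mt-Nd2: ATAaatcctatcacccttgccatcatctac
mt-Co1: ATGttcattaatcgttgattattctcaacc
mt-Nd4: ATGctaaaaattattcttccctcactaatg
mt-Nd5: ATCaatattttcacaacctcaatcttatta
mt-Nd6: ATGaataattatatttttgttttaagttca
mt-Cytb: ATGacaaacatacgaaaaacacacccatta

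*mt-Nd1* started with GTG, *mt-Nd2* with ATA, *mt-Nd5* with ATC and the others with ATG, all of which the vertebrate mitochondrial code accepts as starts. The ends are shown for *mt-Nd4* and *mt-Cytb*, whose lengths of 1378 and 1144 bases leave 1 base beyond whole triplets. The capital marks that base, a lone T, which the poly(A) tail is known to complete to a stop codon, and *mt-Nd6* is printed beside them with its full stop triplet in capitals.

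mt-Nd4: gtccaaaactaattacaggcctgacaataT
mt-Cytb: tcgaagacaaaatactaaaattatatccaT
mt-Nd6: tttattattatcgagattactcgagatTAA

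*mt-Nd6* also differed from the other members in base composition. Its transcript held 43.7% T, 28.1% G and 5.97% C, whereas the C content of the other 6 members ran from 23.8% for *mt-Co1* to 27.7% for *mt-Nd2*. Its GC content of 34.1% was below theirs, which ran from 35.6% for *mt-Nd4* to 39.9% for *mt-Co1*.

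The 6 protein-coding genes that missed the rule encode 2 subunits of complex IV (*mt-Co2* and *mt-Co3*), the mitochondrial subunits of ATP synthase (*mt-Atp6* and *mt-Atp8*) and complex I subunits (*mt-Nd3* and *mt-Nd4l*), so complex V is not covered by the members. To see how far these transcripts can be told from nuclear copies, every 50-base window of each mitochondrial mRNA was searched in the annotated nuclear transcripts of both strands. All 635 windows of *mt-Co2*, 629 of 632 of *mt-Atp6*, 734 of 735 of *mt-Co3*, 293 of 299 of *mt-Nd3* and 245 of 248 of *mt-Nd4l* had an identical copy there. The counts hold uniquely mapped reads only, and the files list the multimapping reads separately at 16.6% to 18.6% of all reads.

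*mt-Atp8* was the exception in this search of annotated transcripts, with no copied window among 155 and 0 reads in all 18 kidneys. It lies from 7766 to 7969 and shares its last 43 bases with *mt-Atp6*. The search covered annotated transcripts and no genome sequence, so copies outside annotated genes were not looked for. On chromosome M, *mt-Atp8* starts after *mt-Co2* and before *mt-Atp6*. The copies of these neighbours, *Gm28661* (24614885 to 24615565) and *Gm10925* (24613974 to 24614651), both lie on the minus strand of chromosome 1. Whether the bases between these copies hold one of *mt-Atp8* was not tested.

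The members differed in how much of them was unique. *mt-Nd1*, *mt-Nd6* and *mt-Cytb* had no copied window, *mt-Nd5* had 135 of 1775 (7.61%) and *mt-Nd2* 81 of 989 (8.19%). *mt-Co1* had 765 of 1496 (51.1%) and *mt-Nd4* 827 of 1329 (62.2%). The copy of *mt-Nd4* is the pseudogene *Gm28439* on chromosome 1 (24611535 to 24612410, minus strand), which is identical to the first 876 bases of the mRNA. Bases 847 to 906 of *mt-Nd4* are shown around the end of that copy, with the part that the copy lacks in capitals.

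mt-Nd4: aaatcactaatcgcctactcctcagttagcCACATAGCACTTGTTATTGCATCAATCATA

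The pseudogenes themselves took few reads. *Gm28439* had 0 to 7 reads per kidney, and *Gm13340* on chromosome 2, a copy of *mt-Co1* with an identity of 97.6%, had 53 to 468 against at least 170191 on *mt-Co1*.

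**Figure D1:**
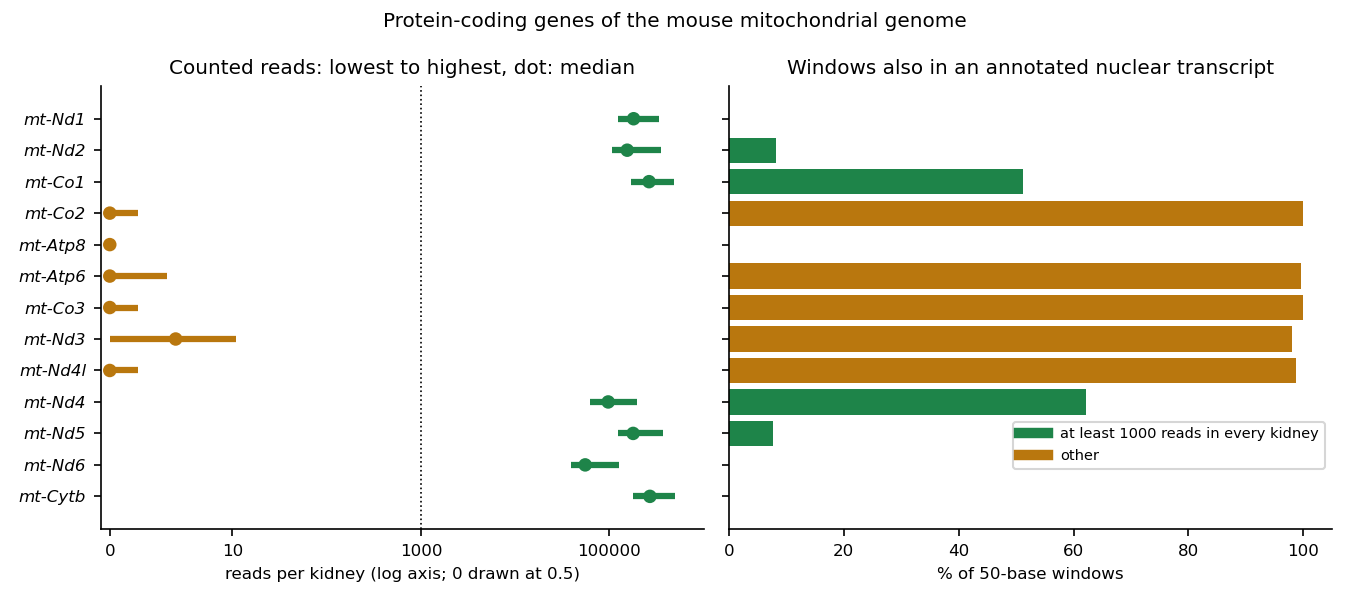
Left, reads per kidney on the 13 protein-coding genes of the mitochondrial genome (log axis, line from the lowest to the highest of 18 kidneys, dot at the median, dotted line at 1000 reads). Right, percent of 50-base windows that also occur in an annotated nuclear transcript. The 7 members have 39361 reads or more, and 5 of the other 6 genes are copied over 98.0% to 100% of their windows.

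Whole kidney was checked against its markers before the comparisons. Proximal tubule, thick ascending limb and distal, podocyte and endothelial markers were detected in all 18 kidneys, and the adrenal genes *Cyp11a1* and *Cyp11b1* had no read in 13 and 15 kidneys. The other genes of the adrenal and fat list were detected in most kidneys. *Star* had 1.92 to 7.02 counts per 1000000 counted reads in all 18. *Plin1* and *Adipoq* had no read in 1 and 2 kidneys and reached 8.14 and 7.84. The targeted genes were lower in their own KO. *Cxcl12* had 26.3 to 40.9 counts per 1000000 reads (CPM, on libraries scaled with TMM) in *Cxcl12* KO and 45.3 to 60.8 CPM in *Cxcl12* control kidneys, but its adjusted p in edgeR's quasi-likelihood test was 0.0942. *Myc* had 26.5 to 36.9 CPM in *Myc* KO and 79.6 to 117 CPM in *Myc* control kidneys (edgeR adjusted p = 8.8e-05). Gene counts summed to 12918220 to 29749500 per kidney. The share of unmapped reads fell below 5% in 6 kidneys, which were also the most deeply sequenced. They were *Cxcl12* KO 1 and 2, *Myc* KO 3 and 5, and *Myc* control 1 and 3. The study's methods say that its own expression values were corrected for batch effects with ComBat but name no batch, and whether these 6 kidneys formed one is not given in the sources used here. As they include no *Cxcl12* control, this split and the genotype are partly confounded in the *Cxcl12* cohort, and results are given with and without these kidneys.

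The 7 mRNAs together took a large share of the counted reads. The share in *Cxcl12* KO kidneys 1 to 5 was 9.46%, 7.86%, 7.54%, 6.46% and 7.32%, and in *Cxcl12* control kidneys 1 to 3 it was 7.21%, 6.66% and 6.49%. The share in *Myc* KO kidneys 1 to 5 was 6.23%, 6.53%, 7.87%, 7.37% and 8.71%, and in *Myc* control kidneys 1 to 5 it was 7.63%, 6.98%, 7.76%, 6.81% and 6.74%. The groups overlapped in both cohorts, and the highest kidney of each cohort was a KO kidney. The means were 7.73% ± 1.10 (SD, n = 5) for *Cxcl12* KO, 6.79% ± 0.38 (SD, n = 3) for *Cxcl12* control, 7.34% ± 1.00 (SD, n = 5) for *Myc* KO and 7.18% ± 0.48 (SD, n = 5) for *Myc* control kidneys. With the means ordered as *Cxcl12* KO, *Myc* KO, *Myc* control and *Cxcl12* control, no neighbours differed by more than their spread.

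The share also differed along the mapping split. It was 7.63% to 9.46% in the 6 kidneys with under 5% unmapped reads and 6.23% to 7.54% in the other 12, with no overlap. Within these 12, *Cxcl12* KO kidneys had 6.46% to 7.54% and *Cxcl12* control kidneys 6.49% to 7.21%, and *Myc* KO kidneys had 6.23% to 7.37% and *Myc* control kidneys 6.74% to 6.98%. What sets these kidneys apart was not tested.

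**Figure D2:**
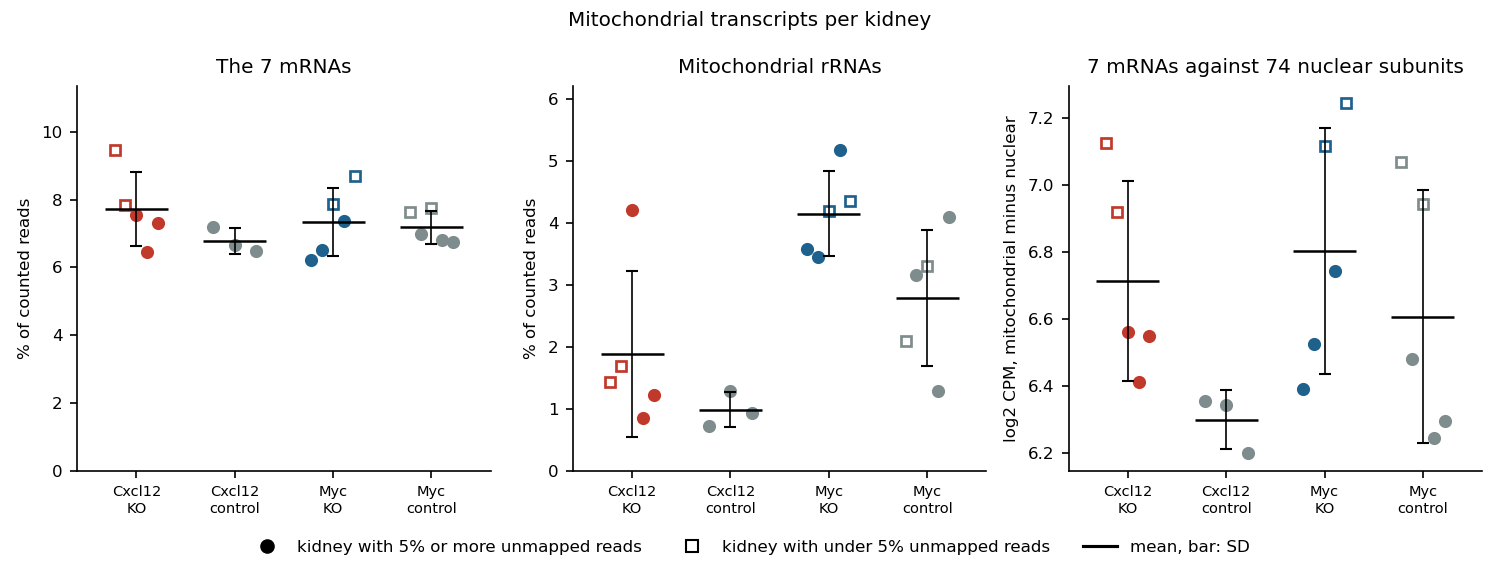
Left and middle, percent of counted reads on the 7 mRNAs and on the mitochondrial rRNAs. Right, mean log2 CPM of the 7 mRNAs minus that of 74 nuclear subunits. Each point is a kidney, squares are kidneys with under 5% unmapped reads, and bars are the mean and SD of a group. All 6 squares lie above every circle in the right panel.

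Levels of different mRNAs can be compared only per length. Over the 18 kidneys, *mt-Cytb* was highest with 14166 ± 1612 CPM per kb (SD), followed by *mt-Nd1* (11388 ± 1362), *mt-Co1* (10047 ± 1170.2), *mt-Nd2* (9463 ± 1615), *mt-Nd6* (6889 ± 1348), *mt-Nd5* (6140.1 ± 1025) and *mt-Nd4* (4403 ± 635). *mt-Cytb* exceeded *mt-Nd1* in 18 of 18 kidneys, and so did each next neighbour in this order except *mt-Co1* and *mt-Nd2*, which held it in 12 of 18. The order depended on how the copied bases were treated. Divided by the number of 50-base windows without a copy instead of by length, *mt-Co1* came first with 21235 ± 2473 CPM per 1000 windows and *mt-Nd4* moved from the last to the third place with 12087 ± 1742. On this scale *mt-Nd4* and *mt-Nd1* (12003 ± 1436) could not be ordered, with *mt-Nd4* above in 9 of 18 kidneys. *mt-Nd5*, at 6829 ± 1139.7, was then the lowest. With windows of 100 bases *mt-Co1* (15523 ± 1808) and *mt-Cytb* (15508 ± 1765) could not be ordered, with *mt-Co1* above in 9 of 18 kidneys. On that scale *mt-Nd1* (12702 ± 1519) was above *mt-Nd4* (12087 ± 1742) in 12 of 18 kidneys, and *mt-Nd5* (6493 ± 1084) was again the lowest.

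Of the reads on the 7 mRNAs, *mt-Cytb* held 20.8% to 23.2% in every kidney, *mt-Co1* 19.5% to 23.1%, *mt-Nd1* 13.5% to 16.3%, *mt-Nd5* 13.7% to 17.1%, *mt-Nd4* 7.60% to 9.11% and *mt-Nd6* 4.27% to 5.94%. *mt-Nd2* varied from 11.1% to 15.2%, and in the *Cxcl12* cohort it made up 12.2% to 13.9% in KO and 11.1% to 12.2% in control kidneys, which met at the edge of their ranges. In both *Myc* groups it made up 13.2% to 15.2%, above every *Cxcl12* control kidney. *mt-Co1* made up 22.1% to 23.1% in *Cxcl12* control kidneys, above the 19.5% to 21.4% of both *Myc* groups, and 20.7% to 22.9% in *Cxcl12* KO kidneys. The cohorts were not compared by a test. Deviations of log2 CPM from the group means moved together across the 18 kidneys, with Pearson r from 0.77 (*mt-Nd4* with *mt-Nd6*) to 0.98 over the 21 pairs of members (median 0.87). The highest belonged to *mt-Nd5* and *mt-Nd6*, which overlap on opposite strands. The points share their libraries and the mapping split, and within the 12 kidneys with 5% or more unmapped reads r ran from 0.54 to 0.94 (median 0.74).

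The first comparison asked how the loss of tubular *Cxcl12* changed these mRNAs 12 h after the injury. All 7 had a higher mean in *Cxcl12* KO than in *Cxcl12* control kidneys, by 1.12-fold for *mt-Co1* to 1.29-fold for *mt-Nd6*, and no difference passed the test. Of all genes tested, 50.2% had a log2 fold change above 0. With edgeR's quasi-likelihood test adjusted over all 15154 genes, 0 of 7 members had an adjusted p under 0.05, where 0% of all genes did (0 of 15154, with 1976 at an unadjusted p under 0.05). The median log2 fold change of the members was 0.26, against 0.00083 for all genes. 2 of 7 members were higher at an unadjusted p under 0.05, where 6.41% of all genes were. With DESeq2 4 of 7 reached that unadjusted p and with limma-voom 2 of 7, none with an adjusted p under 0.05, although DESeq2 called 355 genes in all (2.34%).

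Among the complex I mRNAs, *mt-Nd2* encodes a membrane subunit of the proton-pumping arm. Its level was 12351, 10518, 10612, 7854 and 9018 CPM in *Cxcl12* KO kidneys 1 to 5 and 8451, 7649 and 7325 CPM in *Cxcl12* control kidneys 1 to 3. Kidney 4 was the only KO kidney within the control range, and the other 4 KO kidneys lay above all controls. The log2 fold change was 0.37 (95% interval 0.03 to 0.70), with an unadjusted p of 0.0357 and an adjusted p of 0.354 in edgeR's test.

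*mt-Nd4* encodes another membrane subunit of the pumping arm. Its level was 7889.8, 6696, 6973, 5204 and 6040.1 CPM in *Cxcl12* KO and 5267, 5235 and 4992 CPM in *Cxcl12* control kidneys. The controls lay within a narrow range, and again 4 of 5 KO kidneys were above the highest of them, with kidney 4 inside. The log2 fold change was 0.35 (95% interval 0.04 to 0.65), with an edgeR adjusted p of 0.344.

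*mt-Nd6*, the minus-strand member, had 5352, 4035, 3464, 3005 and 3408 CPM in *Cxcl12* KO and 3154, 2904 and 2901 CPM in *Cxcl12* control kidneys. Kidney 1 stood highest, and kidney 4 was below the highest control. The log2 fold change of 0.37 (95% interval -0.02 to 0.75) had an edgeR adjusted p of 0.400. *mt-Nd5*, the longest mRNA of the set, had 9420.2 to 16044 CPM in KO and 9259 to 10310.3 CPM in control kidneys, and *mt-Nd1*, whose product links the membrane arm to the quinone site, had 9414 to 15076 CPM and 9929 to 11298 CPM. For both, 4 of 5 KO kidneys were above every control, and kidney 4 lay within the control range for *mt-Nd5* and below it for *mt-Nd1*. Their log2 fold changes were 0.26 (95% interval -0.11 to 0.63) and 0.18 (95% interval -0.16 to 0.51).

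The mRNA of complex III, *mt-Cytb*, had 21401, 17646, 17508, 14854 and 16758 CPM in *Cxcl12* KO and 14685, 14829 and 15222 CPM in *Cxcl12* control kidneys. KO kidney 4 lay among the controls, and the other KO kidneys were above them. Its log2 fold change was 0.24 (95% interval -0.06 to 0.54) with an edgeR adjusted p of 0.471. The complex IV mRNA *mt-Co1* overlapped more, with 14811 to 21014 CPM in KO and 14115 to 15972 CPM in control kidneys, 3 of 5 KO kidneys above the highest control and a log2 fold change of 0.17 (95% interval -0.14 to 0.47). No member had all KO kidneys above all control kidneys, which 4.75% of the genes tested did.

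**Figure D3:**
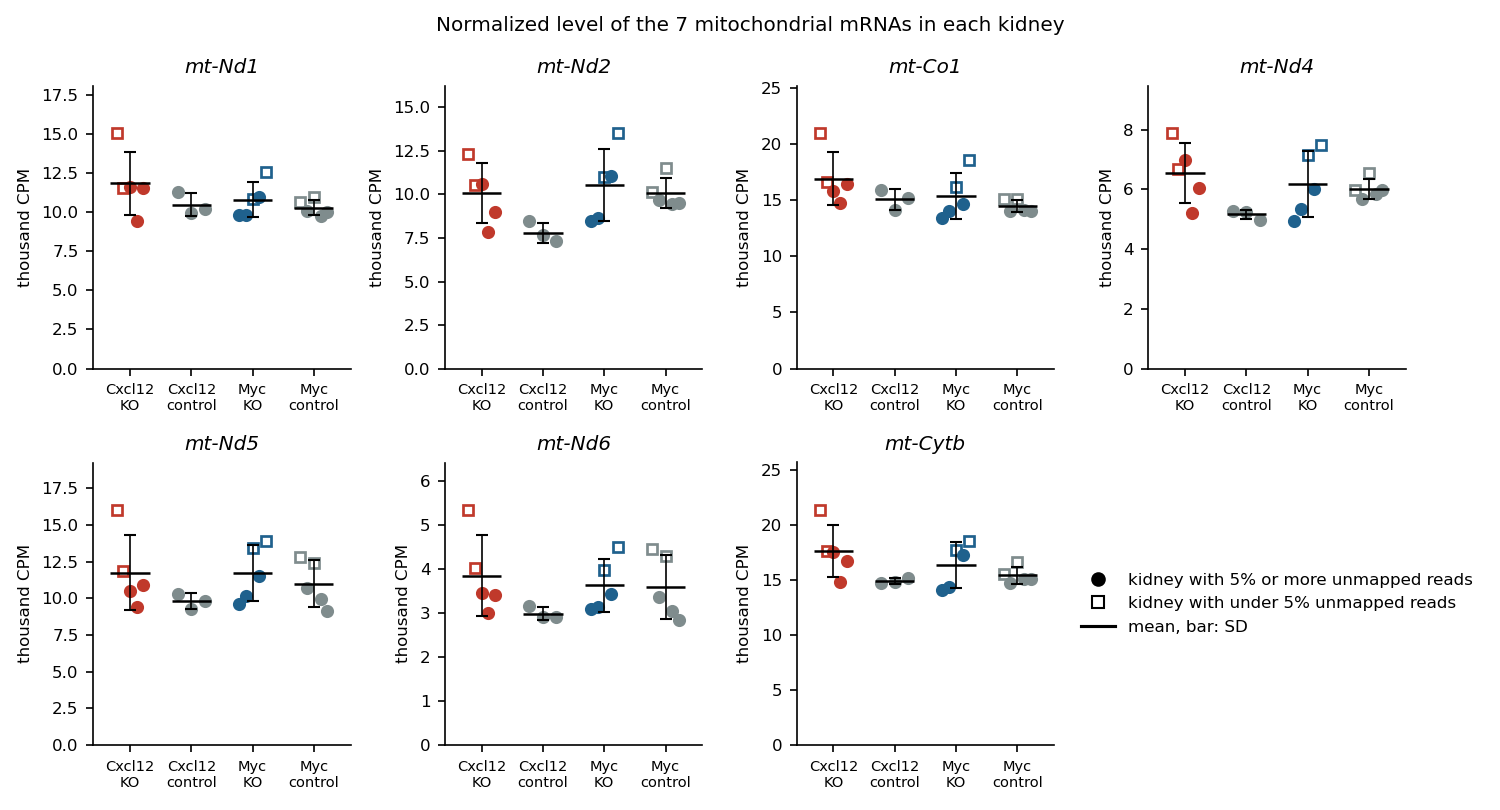
CPM (axes from 0, in units of 1000 CPM) of each of the 7 mRNAs in every kidney by group. Squares are kidneys with under 5% unmapped reads, and bars are the mean and SD. In the *Cxcl12* cohort KO kidney 1 is the highest point of every panel, and KO and control kidneys overlap in every panel and cohort.

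*Cxcl12* KO kidney 1 weighed heavily on these values. Without it the median log2 fold change fell from 0.26 to 0.16. With the 3 KO and 3 control kidneys that had 5% or more unmapped reads, it was 0.13, with 0.23 for *mt-Nd4* and 0.22 for *mt-Nd2* as the largest. With the mapping split as a term in the fit it was also 0.13. The sign was positive for all 7 members in each of these fits.

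Other measures also differed between KO and control kidneys of the *Cxcl12* cohort. The summed level of 12 proximal tubule markers was 5542 to 6364 CPM in KO and 6960.4 to 7664 CPM in control kidneys, and that of 5 tubular injury markers was 4482 to 5896 CPM in KO and 2790.1 to 3809 CPM in control kidneys. Neither overlapped. Among single genes of this cohort, 4.75% had every KO kidney above every control kidney. The percent with every KO kidney below every control kidney was not counted here. How often sums of genes or shares of reads separate in this way was not tested. edgeR's test called no gene at all in this cohort. DESeq2 called 3 of the 12 proximal tubule markers lower, where 1.35% of all genes were, and 1 of the 5 injury markers higher, where 0.99% were. Of 10 thick ascending limb and distal markers, 9 had a negative log2 fold change (median -0.42), with sums of 3041 to 5367 CPM in KO and 4370 to 5148 CPM in control kidneys. All 5 erythroid markers had a positive one (median 1.17), with sums of 36.0 to 163 CPM and 13.1 to 68.5 CPM. Both of these sums overlapped. The median was 0.11 for the 5 podocyte, 0.14 for the 5 endothelial and 0.37 for the 7 leukocyte markers tested. The log2 fold change was positive for 5 podocyte, 4 endothelial and 4 leukocyte markers, and negative for 1 endothelial and 3 leukocyte markers. Of the injury markers 4 were positive and 1 negative. Multimapping reads made up 17.0% to 18.6% of all reads in KO and 16.7% to 16.8% in control kidneys, again without overlap. The part of these measures in the levels of the mRNAs was not tested.

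The second comparison asked the same of tubular *Myc* loss. The 7 mRNAs differed little between *Myc* KO and *Myc* control kidneys. Their log2 fold changes ran from 0.01 for *mt-Nd6* (-0.03 without TMM scaling) to 0.09 for *mt-Nd5*. The median was 0.07, against -0.00083 for all genes. In edgeR's quasi-likelihood test 0 of 7 had an adjusted p under 0.05, where 1.65% of the 14936 genes tested did, and 0 of 7 had an unadjusted p under 0.05, where 10.6% of all genes were higher at that level. All 7 values were above 0, as were 49.9% of all genes. No member had every KO kidney above every control kidney, which 2.12% of all genes had. DESeq2, which called 7.63% of all genes, and limma-voom also called 0 of 7, with 0 at an unadjusted p under 0.05.

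*mt-Nd2* had 8483, 8678, 11008, 11037 and 13529 CPM in *Myc* KO kidneys 1 to 5 and 10170.3, 9699, 11539, 9428 and 9507 CPM in *Myc* control kidneys 1 to 5. The KO kidneys spread more widely, with KO 1 and 2 below every control and KO 5 above every control. The log2 fold change was 0.07 (95% interval -0.23 to 0.36).

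*mt-Nd4* had 4933, 5339.6, 7168, 6021 and 7480.3 CPM in *Myc* KO and 5986, 5664, 6545, 5852 and 5987 CPM in *Myc* control kidneys. KO 3 and 5 were above all controls, and KO 1 and 2 were below all of them. The log2 fold change was 0.04 (95% interval -0.23 to 0.31).

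*mt-Cytb* had 14046, 14319, 17701, 17229 and 18526 CPM in *Myc* KO and 15547, 14732, 16668, 15079 and 15126 CPM in *Myc* control kidneys. Here 3 of 5 KO kidneys exceeded every control and the other 2 lay below every control. Its log2 fold change was 0.08 (95% interval -0.16 to 0.33).

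*mt-Co1* (13405 to 18618 CPM in KO and 14099.9 to 15174 CPM in control kidneys) and *mt-Nd1* (9819.6 to 12575 CPM and 9757 to 11014 CPM) also overlapped. KO 5 was the highest kidney of the cohort for both, and KO 1 and 2 were below every control for *mt-Co1* but not for *mt-Nd1*. Their log2 fold changes were 0.08 (95% interval -0.16 to 0.33) and 0.07 (95% interval -0.15 to 0.29). *mt-Nd5* had 9642 to 13872 CPM in KO and 9111 to 12822 CPM in control kidneys, and *mt-Nd6* had 3100.3 to 4500.4 CPM and 2846 to 4445 CPM. In both, *Myc* control 1 and 3 stood above the other controls and were of the 6 kidneys with under 5% unmapped reads.

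The intervals give the size of change that these kidneys leave possible. In the *Myc* cohort the 95% intervals of the 7 members together ran from -0.32 to 0.39 on the log2 scale, the lower end from *mt-Nd6* and the upper end from *mt-Nd5*. Several kidneys moved the small median of 0.07 by more than 1.5 times. It was 0.01 without *Myc* KO 5, 0.13 without *Myc* KO 1 and 0.12 without *Myc* KO 2. It was 0.03 among the 3 KO and 3 control kidneys with 5% or more unmapped reads, where *mt-Nd2* and *mt-Nd4* had log2 fold changes of -0.01 and -0.09. Without TMM scaling, which sets the libraries on a common level, it was also 0.03.

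The third comparison tested whether the KO effects differed between the cohorts. The *Myc* effect minus the *Cxcl12* effect was negative for all 7 members, from -0.36 for *mt-Nd6* to -0.09 for *mt-Co1*, with a median of -0.18. None passed. In edgeR's test 0 of 7 members had an adjusted p under 0.05, where 0.0692% of 15903 genes did, and 0 of 7 had an unadjusted p under 0.05, where 11.4% of the genes did. DESeq2 and limma-voom also called 0 of 7. The largest was *mt-Nd6*, with -0.36 (95% interval -0.86 to 0.14) and an edgeR adjusted p of 0.631. The smallest unadjusted p, 0.109, belonged to *mt-Nd4* with -0.31 (95% interval -0.69 to 0.08). The median was -0.09 without *Cxcl12* KO 1, -0.11 without *Myc* KO 1, and -0.06 among the 12 kidneys with 5% or more unmapped reads, where *mt-Nd1* (0.0009) and *mt-Nd5* (0.02) were no longer negative.

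**Figure D4:**
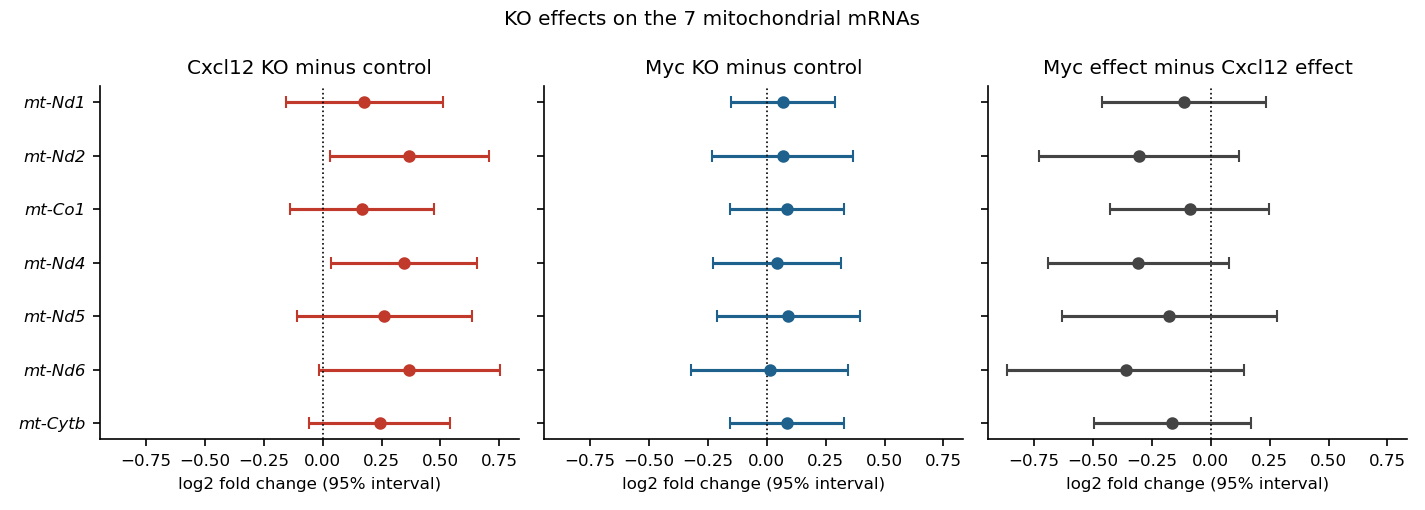
Log2 fold changes of the 7 mRNAs with 95% intervals from edgeR's quasi-likelihood fits, for *Cxcl12* KO minus control (left), *Myc* KO minus control (middle) and the difference of these effects (right). All points are positive in the first 2 panels (*mt-Nd6* in the middle panel is negative without TMM scaling) and negative in the third. The intervals of *mt-Nd2* and *mt-Nd4* in the left panel are the only ones that leave out 0, and neither passed the adjusted test.

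The mitochondrial rRNAs, which come from the same precursors as most of the mRNAs, varied far more. *mt-Rnr1* and *mt-Rnr2* together held 0.73% to 5.17% of the counted reads. Per read on the 7 mRNAs there were 0.15, 0.22, 0.56, 0.13 and 0.17 rRNA reads in *Cxcl12* KO kidneys 1 to 5 and 0.10, 0.19 and 0.14 in *Cxcl12* control kidneys. The ratio was 0.58, 0.53, 0.53, 0.70 and 0.50 in *Myc* KO and 0.27, 0.45, 0.43, 0.19 and 0.61 in *Myc* control kidneys. *Cxcl12* KO 3 stood apart in its cohort, and KO and control kidneys overlapped in both cohorts. The log2 fold changes were 0.83 (standard error 0.42, edgeR adjusted p = 0.437) for *mt-Rnr1* and 1.08 (0.46, 0.366) for *mt-Rnr2* in the *Cxcl12* cohort. Without *Cxcl12* KO 3 they were 0.33 (0.23, edgeR adjusted p = 0.544) and 0.53 (0.26, 0.394). For *Myc* they were 0.75 (0.23, edgeR adjusted p = 0.107) and 0.56 (0.27, 0.248), and 0.59 and 0.37 without *Myc* control 4. None of these passed the threshold in edgeR's test, and DESeq2 called *mt-Rnr1* in the *Myc* cohort (adjusted p = 0.0150), where it called 3.27% of all genes higher. The library protocol is proprietary, and how it treats rRNA is not given in the sources used here.

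Most nuclear genes for subunits of the same complexes had log2 fold changes below 0 in both cohorts. The 74 genes called subunits here include *Atpif1*, an inhibitor of ATP synthase, and *Cox7a2l*, a factor of supercomplex assembly. In the *Cxcl12* cohort 0 of 74 nuclear subunits of complexes I, III, IV and V passed edgeR's test, where 0% of all genes did, and 68 of 74 had a negative log2 fold change (median -0.16). At an unadjusted p under 0.05, 11 of 74 were lower, where 6.63% of all genes were, and 0 higher. The complex I accessory subunit *Ndufb10* had -0.30 (standard error 0.07, edgeR adjusted p = 0.132), and *Atp5g1*, which encodes the c subunit of the ATP synthase ring, had -0.42 (0.09, edgeR adjusted p = 0.106). DESeq2 called these 2 genes lower and no other of the 74, where it called 1.35% of all genes lower. With *Myc* loss 0 of 74 passed edgeR's test, 71 of 74 had a negative log2 fold change (median -0.13), and 5 were lower at an unadjusted p under 0.05, where 11.2% of all genes were. *Ndufb2*, an accessory subunit of complex I, had -0.31 (standard error 0.13, edgeR adjusted p = 0.204), and *Cox7c*, a small subunit of complex IV, had -0.26 (0.11, 0.202). These fits used all kidneys of a cohort. The mean log2 CPM of the 74 genes was 6.20 to 6.51 in the 6 kidneys with under 5% unmapped reads. It was 6.49 to 6.83 in the other 12. Among these 12, it averaged 6.64 ± 0.05 (SD) in *Cxcl12* KO and 6.71 ± 0.08 in *Cxcl12* control kidneys. In the *Myc* cohort it averaged 6.53 ± 0.06 in KO and 6.74 ± 0.11 in control kidneys.

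The mean log2 CPM of the 7 mRNAs minus that of the 74 nuclear subunits was 7.13, 6.92, 6.56, 6.41 and 6.55 in *Cxcl12* KO kidneys and 6.35, 6.34 and 6.20 in *Cxcl12* control kidneys. Every KO kidney was above every control. In the *Myc* cohort it was 6.39, 6.53, 7.12, 6.74 and 7.24 in KO and 7.07, 6.48, 6.94, 6.24 and 6.30 in control kidneys, which overlapped. This measure also differed along the mapping split, at 6.92 to 7.24 in the 6 kidneys with under 5% unmapped reads and 6.20 to 6.74 in the other 12. Among these 12, the mean was 6.51 ± 0.08 (SD) over 3 *Cxcl12* KO kidneys and 6.30 ± 0.09 (SD) over 3 *Cxcl12* control kidneys. It joins members chosen by level with a list chosen with results known, and carries no test. Across the 18 kidneys, deviations of the nuclear mean from the group means had a Pearson r of -0.59 with those of the summed mRNAs. Both measures followed the mapping split, and within the 12 kidneys with 5% or more unmapped reads r was -0.19.

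Genes that copy, transcribe and process mitochondrial RNA were set beside the mRNAs. Of 20 genes for mitochondrial RNA processing and decay, 4 were lower in *Myc* KO kidneys in edgeR's test and 0 higher, where 1.29% of all genes were lower, and all 20 had a negative log2 fold change (median -0.29). *Elac2*, the nuclease that cuts tRNA 3' ends from the precursors, had 26.2 to 31.7 CPM in *Myc* KO and 34.7 to 41.8 CPM in *Myc* control kidneys. The difference on the log2 scale was -0.36, with a standard error of 0.08 (edgeR adjusted p = 0.0475). *1110008L16Rik*, the catalytic subunit of mitochondrial RNase P (also named *Prorp*), which cuts tRNA 5' ends, had 13.7 to 16.3 CPM in KO and 17.5 to 24.2 CPM in control kidneys. It changed by -0.49 (0.11, edgeR adjusted p = 0.0408).

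The other 2 were *Ptcd2*, a pentatricopeptide repeat protein linked to *mt-Cytb* mRNA processing, and *Rexo2*, an oligoribonuclease. *Ptcd2* changed by -0.47 (standard error 0.10, edgeR adjusted p = 0.0366) and *Rexo2* by -0.38 (0.09, edgeR adjusted p = 0.0464), and KO and control kidneys did not overlap for any of the 4 genes. Of all genes, 3.74% had every KO kidney below every control kidney. The 4 genes were picked by the test on the same kidneys, so their separation is no further evidence. The calls were close to the threshold. limma-voom called 0 of the 4. DESeq2 called all 4 and 8 of the 20 in all, where 4.35% of all genes were lower in its test. In edgeR's test, 0 genes of these lists passed without *Myc* KO 2, 3, 4 or 5 or without *Myc* control 2, 4 or 5. Without *Myc* KO 1, *Myc* control 1 and *Myc* control 3 the number was 2, 1 and 8, and among the 6 kidneys with 5% or more unmapped reads it was 0. The differences from the *Cxcl12* effect did not pass the interaction test, with edgeR adjusted p from 0.169 for *Rexo2* to 0.555 for *Elac2*. In the *Cxcl12* cohort 0 of the 20 passed, where 0% of all genes did, and 4 were lower at an unadjusted p under 0.05, where 6.63% of all genes were. They included *Lrpprc* (-0.31, standard error 0.13, edgeR adjusted p = 0.354) and *Slirp* (-0.28, 0.11, 0.349), whose products form a complex that stabilizes mitochondrial mRNAs.

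Markers of other cell types were set beside these genes in the *Myc* cohort. The log2 fold change was positive for all 5 podocyte markers (median 0.34), 4 of 5 endothelial markers (0.24) and 6 of 7 leukocyte markers tested (0.29). Their summed levels overlapped, with 707 to 801 CPM in KO and 431 to 752 CPM in control kidneys for podocyte, 564 to 786 CPM and 432 to 704 CPM for endothelial, and 198 to 279 CPM and 121 to 257 CPM for leukocyte markers. Proximal tubule markers had a median of 0.11 and distal markers of 0.02. Of the 5 tubular injury markers, 3 had a positive and 2 a negative log2 fold change (-1.32 to 0.43). Their sums were 5371 to 6371 CPM in KO and 4651 to 6393 CPM in control kidneys. Multimapping reads made up 16.6% to 18.1% of all reads in KO and 17.0% to 18.1% in control kidneys. Both of these measures overlapped. edgeR's test called no gene of these lists. DESeq2 called 1 podocyte, 2 endothelial and 1 proximal tubule marker higher, where 3.27% of all genes were, and 2 distal markers lower, where 4.35% were. These marker values used all kidneys of the cohort and were not split by the share of unmapped reads. The part of these markers in the levels of the RNA processing genes was not tested.

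Of the genes for mtDNA transcription and maintenance, 0 of 16 passed edgeR's test in the *Cxcl12* cohort, where 0% of all genes did, and 0 of 15 in the *Myc* cohort, where 1.65% did. At an unadjusted p under 0.05, 1 of 16 was lower in the *Cxcl12* cohort, where 6.63% of all genes were. In the *Myc* cohort it was 5 of 15, where 11.2% of all genes were, and 0 were higher in either cohort. *Polrmt*, the mitochondrial RNA polymerase, had -0.25 (standard error 0.11, edgeR adjusted p = 0.369) in the *Cxcl12* cohort. *Tefm*, its elongation factor, had -0.60 (0.14, edgeR adjusted p = 0.0534) and *Twnk*, the replicative helicase, had -0.42 (0.12, 0.0950) in the *Myc* cohort. DESeq2 called *Tefm* and *Twnk* lower, where it called 4.35% of all genes lower.

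**Figure D5:**
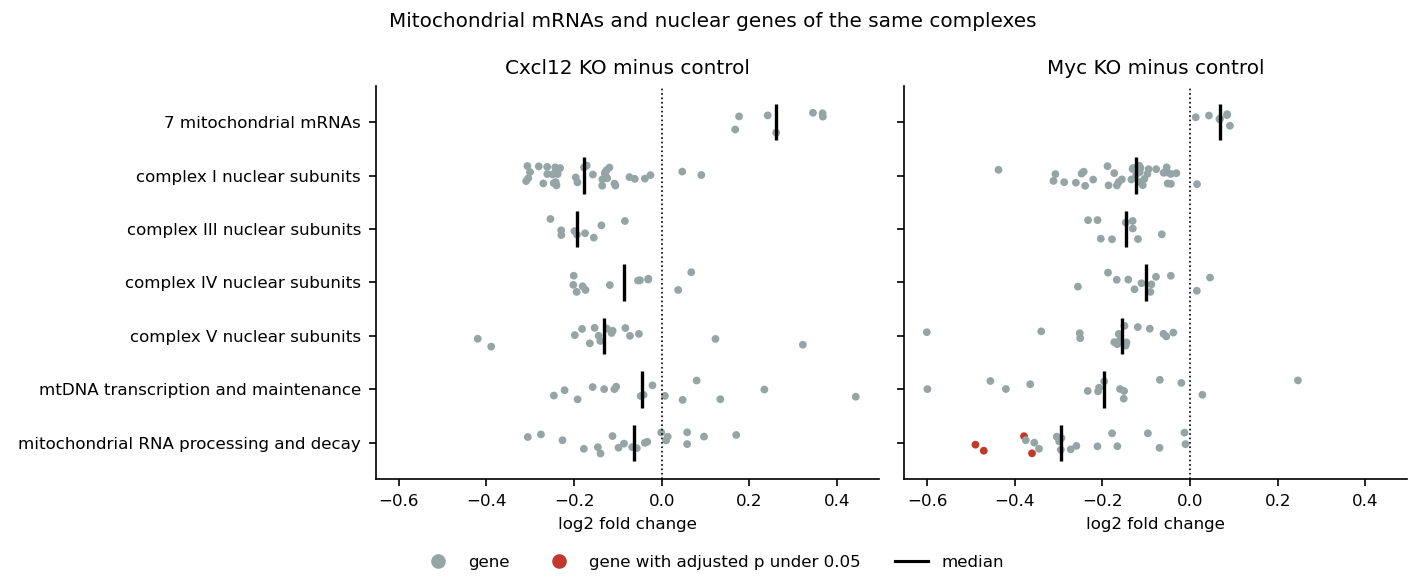
Log2 fold change of each gene in edgeR's fits for the 7 mRNAs, the nuclear subunits of complexes I, III, IV and V, and the genes of mitochondrial transcription and RNA processing (line at the median, dots shifted vertically at random). The 7 mRNAs lie right of 0 in both cohorts (*mt-Nd6* in the *Myc* cohort lies left of it without TMM scaling), and the 4 red genes of RNA processing are the only ones with an adjusted p under 0.05.

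Nuclear genes whose levels followed the mRNAs most closely were named from 9738 genes with a mean of at least 10 CPM, by the Pearson r of their deviations from group means with those of the summed mRNAs over 18 kidneys. The highest were *Ppp6c*, a phosphatase catalytic subunit (r = 0.93), *Tmx3* (0.93), *Fbxo11* (0.91), *Fam76b* (0.90) and *Usp53* (0.90). The lowest were *Eif3g*, a translation initiation factor (r = -0.92), *Rxrb*, a retinoid X receptor (-0.92), *Nudt3* (-0.91), *Gga1* (-0.91) and *Bax*, a pro-apoptotic BCL-2 family protein (-0.91). The kidneys share the mapping split, and among the 12 with 5% or more unmapped reads r was lower in size for all 10 genes, from 0.64 to 0.82 for the first 5 and from -0.77 to -0.71 for the others. The median over all genes was -0.04.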

How the data were processed

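RNA-seq counts of 18 whole kidneys were analysed. Per the labels and the study's methods, the authors trimmed reads with Trimmomatic 0.32, aligned them with STAR 2.4.0 to GRCm38, and deposited raw counts of uniquely mapped reads per gene. The unstranded column was used, since both strand columns held 51.8% to 52.8% of it. Reads counted on genes ranged from 12918220 to 29749500 per kidney, and the files' summary lines for unmapped, multimapping, unassigned and ambiguous reads were left out of library sizes. No other column of sample values was present. CPM were computed on libraries scaled with TMM within each cohort, with 2 exceptions. Levels per length or per window and log2 CPM (prior count of 2) used TMM over all 18 kidneys. Marker levels and sums were taken without TMM.

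Kidneys were grouped by the labels. KO and control kidneys were compared within each cohort with edgeR 4.0.16 (filterByExpr, TMM, quasi-likelihood test) under R 4.3.3. The difference of the KO effects was an interaction contrast over all 18 kidneys. P-values were two-sided, adjusted by Benjamini-Hochberg over all genes tested, with a threshold of 0.05. The study's methods describe the mice as littermates, but the labels tie no kidney to a litter, so litter could not enter a fit. The study's batch correction (ComBat) names no batch and is not in the deposited raw counts. Alternatives were DESeq2 1.42.0, limma-voom 3.58.1, other scalings, filters, count columns and denominators, the replicate number as a block, kidneys with 5% or more unmapped reads alone, that split as a covariate, and each kidney left out in turn. The fits were tested on simulated counts, in which 66 of 100 genes changed by 1 on the log2 scale were found for the *Cxcl12* comparison (15053 genes), 83 of 99 for *Myc* (14921 genes) and 32 of 97 for the difference (15642 genes), without a wrong sign. Of the genes called there, 2.37%, 3.24% and 6.67% were false. The simulated counts gave every gene the same dispersion, held no mapping split and planted changes of 1 or 2 only. The members changed by less than 1, so these rates do not give the power for them.

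The members and gene lists were chosen with earlier results of these data known. Named genes were the members, other mitochondrial genes, the targeted genes, the 3 genes with the smallest p per list and cohort at most, the 5 nuclear genes most and least like the members, and genes with copies of mitochondrial genes. *Elac2* falls outside this rule and was named after its values were seen. So do the adrenal and fat markers, *Atpif1* and *Cox7a2l*, which are named to describe their lists. Symbols were matched for 45143 of 45706 identifiers in GENCODE vM21. Of 111 listed nuclear genes for subunits, transcription and RNA processing, 110 were matched. Copies were searched as identical windows of 50 bases in transcripts, as no genome sequence was used here.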

Additional observations from a re-analysis of the deposited data

Results flagged for a closer look

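*Cxcl12* KO 3 stood apart from the other 4 *Cxcl12* KO kidneys in its mitochondrial rRNA. The rRNAs *mt-Rnr1* and *mt-Rnr2* took 4.21% of its counted reads, against 0.85% to 1.69% in the others. Per read on the 7 mRNAs it had 0.558 rRNA reads, against 0.132 to 0.215. Its share of reads on the 7 mRNAs, 7.54%, was the median of its group. Both values share the same rRNA reads, and of 44 groups of values looked at these 2 held a kidney beyond the limit of Dixon's test, which chance alone passes in about 1 of 20 groups.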

How the results depend on the processing

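No member had an adjusted p under 0.05 in any of the 72 fits, in which the smallest was 0.159 (*mt-Nd4*, DESeq2, *Cxcl12* cohort). The median log2 fold change of the members ranged from 0.13 to 0.36 (the highest with the replicate block) over the other settings and from 0.16 to 0.33 with each kidney left out in the *Cxcl12* cohort. The ranges were 0.03 to 0.07 and 0.01 to 0.13 in the *Myc* cohort, and -0.28 to -0.06 and -0.24 to -0.09 for the difference. Of 483 values of single members, 470 kept their sign and 13 changed it, all with an adjusted p over 0.05. In the *Myc* cohort these were *mt-Nd2* (-0.0094 in kidneys with 5% or more unmapped reads, -0.037 without *Myc* KO 5), *mt-Nd4* (-0.091 in those kidneys, -0.014 without *Myc* KO 3, and -0.033 to 0.114 with each kidney left out, the lowest without *Myc* KO 5) and *mt-Nd6* (-0.030 without TMM, -0.023 and -0.076 without *Myc* KO 3 and 5, -0.012, -0.041 and -0.061 without *Myc* control 2, 4 and 5). For the difference they were *mt-Nd1* (0.00090) and *mt-Nd5* (0.022) in kidneys with 5% or more unmapped reads. The log2 ratio of the KO to the control mean share of reads was 0.19 in the *Cxcl12* cohort (0.17 to 0.22 with other denominators or columns, 0.10 without *Cxcl12* KO 1) and 0.03 in the *Myc* cohort (0.01 to 0.06, and -0.04 to 0.08 with each kidney left out). The cause of these shifts was not tested.

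For the rRNAs, 79 of 80 values kept their sign and their side of the threshold, and *mt-Rnr1* passed with DESeq2 in the *Myc* cohort.

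The calls on pathway genes depended on the test. In the *Cxcl12* cohort the count was 0 of 110 with edgeR and 2 with DESeq2. In the *Myc* cohort it was 4 of 109, and became 10 with DESeq2, 0 with limma-voom, 7 without TMM, 2 without the filter, 0 in kidneys with 5% or more unmapped reads, 11 with that split as a covariate and 0 to 8 with each kidney left out. All rRNA settings, all pathway settings other than DESeq2 and limma-voom, the windows of 100 bases, and the shares with a kidney left out, were added after seeing the data. Over all genes, calls went from 0 to 355 (DESeq2), 214 (no filter), 17 (no TMM), 80 (5% or more unmapped), 123 (covariate) and 0 to 15 (each kidney left out) in the *Cxcl12* cohort. In the *Myc* cohort they went from 246 to 1139 (DESeq2), 391 (no TMM), 8 (5% or more unmapped), 954 (covariate) and 21 to 877 (each kidney left out), and for the difference from 11 to 314 (DESeq2), 3 (limma-voom), 5 (no TMM), 17 (mitochondrial genes out of the scaling), 44 (5% or more unmapped), 133 (covariate) and 1 to 75 (each kidney left out).

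Mice of different groups share replicate numbers, but the labels tie no numbers to litters or days. Deviations from group means correlated at -0.03 to 0.13 between kidneys of the same number in the *Cxcl12* cohort and at -0.21 to 0.40 in the *Myc* cohort, so the numbers were not taken as pairs. With the replicate block the median of the members was 0.36, 0.06 and -0.28 for *Cxcl12*, *Myc* and the difference with 0 members called, 0 pathway genes were called in either cohort, and all genes called numbered 0, 18 and 1. No *Cxcl12* control carries number 4 or 5, so *Cxcl12* KO 4 and 5 added nothing to the blocked *Cxcl12* effect.

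With 3 *Cxcl12* control kidneys and a mapping split that holds none of them, small changes of the members were not detectable, and the standard errors of 0.14 to 0.17 on the log2 scale in that cohort limit what the counts can show despite 39361 or more reads per member. The intervals cover variation between mice and no uncertainty from copied bases.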

Other observations

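Among genes of the mitochondrial genome outside the members, *mt-Nd3* and the tRNA genes *mt-Tr* and *mt-Tv* had ranges of reads that did not overlap between the cohorts. The reads are raw, not scaled to depth, and many are near 0. How many of all genes have ranges that do not overlap between the cohorts was not counted. Whether these genes are unusual is therefore not known, and they are described only. *mt-Nd3* (chromosome M, 9459 to 9806, plus strand) had 0 to 1 reads in the 8 kidneys of the *Cxcl12* cohort and 2 to 11 in the 10 of the *Myc* cohort, and *mt-Tr*, next to it (9808 to 9875), had 0 and 12 to 49. *mt-Tv*, which lies elsewhere, between the rRNA genes, had 0 to 3 and 4 to 22 reads. The ranges of *mt-Ta* overlapped slightly, at 70 to 210 and 191 to 728. The pseudogene *Gm28438* on chromosome 1 (24612775 to 24613119, minus strand) had 134 to 242 reads in the *Cxcl12* and 0 to 4 in the *Myc* cohort. Its 345 bases differ from *mt-Nd3* by 1 base, written T3C with the *mt-Nd3* base first and positions counted from 1 at the first base of *mt-Nd3*. The aligned first 60 bases are printed with that base in capitals. In these reference sequences, only reads that cover it can tell the transcripts apart within this stretch. Which base the mice of each cohort carry in *mt-Nd3* was not examined, as only counts were used. Reads counted on *Gm28438* therefore cannot be assigned to the pseudogene rather than to *mt-Nd3*.

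mt-Nd3: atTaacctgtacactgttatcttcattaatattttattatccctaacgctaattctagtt
Gm28438: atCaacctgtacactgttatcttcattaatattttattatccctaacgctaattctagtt

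Within the cohorts *mt-Nd3* had 0 reads in *Cxcl12* KO and 0 to 1 in *Cxcl12* control kidneys, and 3 to 7 in *Myc* KO and 2 to 11 in *Myc* control kidneys. The cohorts were not compared by a test, and what sets them apart was not tested. Of the 22 mitochondrial tRNA genes, 7 had no read in any kidney.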
